A study of Mus musculus with 8 samples.

Results

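The genes described here encode 10 mouse pseudouridine synthases other than Pus10: Pus1, Pus3, Pusl1, Pus7, Pus7l, Trub1, Trub2, Dkc1, Rpusd3 and Rpusd4. They were chosen by symbol, from the Ensembl identifiers of 55487 gene rows, and all 10 were found. Their levels came from 8 bulk Smart-seq2 RNA-seq libraries of sorted mouse haematopoietic stem cells (HSCs). Smart-seq2 is a method for few cells that copies poly(A) RNA into full-length cDNA and amplifies it. HSCs renew themselves and give rise to every blood lineage. The groups were 4 libraries of genotype NTC and 4 of genotype miR652-KD. The labels spell out neither abbreviation, and by common usage NTC is read here as the control and KD as a knockdown of the microRNA miR-652. The labels give neither strain, age, sorting markers and knockdown method, nor whether replicates came from separate animals, so the p-values rest on a spread among libraries that could be technical.

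Pseudouridine is an isomer of uridine in which the base is joined to the sugar through carbon, and it is the most common modified nucleoside in cellular RNA. Pseudouridine synthases make it after transcription. Most find their target uridines by themselves, from sequence and fold, whereas dyskerin, encoded by Dkc1, is guided to ribosomal and spliceosomal RNA by H/ACA small RNAs and also holds the telomerase RNA. In blood, inherited defects of dyskerin cause bone marrow failure, defects of PUS1 cause a sideroblastic anaemia with myopathy, and PUS7 modifies tRNA-derived fragments that restrain translation in stem cells. The title of the series concerns ageing and another enzyme of the class, Pus10, in HSCs. The comparison addresses which transcripts differ between miR652-KD and NTC.

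The mature arms of miR-652 are shown because their seeds decide which transcripts could pair with this microRNA. Both are from RefSeq (GRCm38.p6), with the seed, bases 2 to 8, in capitals.
mmu-miR-652-3p: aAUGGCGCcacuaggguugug
mmu-miR-652-5p: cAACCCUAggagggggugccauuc
The longest annotated 3′ UTR of each gene was searched for sites of at least 7 bases. These were GCGCCAT or CGCCATA for the 3p arm and TAGGGTT or AGGGTTA for the 5p arm, and overlapping matches make up the 8-base site. For the 3p arm, 0 of the 10 synthase genes held a site, against 2.39% of 21037 protein-coding genes. For the 5p arm 2 did, Trub2 and Rpusd4, against 12.2% of the same genes. The sites, in capitals, lay at bases 209 to 215 of the 1521-base Trub2 UTR and at bases 530 to 536 of the 662-base Rpusd4 UTR.
Trub2: caaggccagccTAGGGTTtcttagtaaaa
Rpusd4: caaactgtctaAGGGTTAttagcgccagt
A match is a run of letters and no measured binding site. Trub2 and Rpusd4 had log2 differences of 0.11 and 0.39 between miR652-KD and NTC, neither past the threshold given below.

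Starts of 4 synthase genes lie back to back with a protein-coding gene on the other strand. The annotated starts are 41 bp apart for Pusl1 and Acap3, 60 bp for Rpusd4 and Fam118b, 67 bp for Pus3 and Ddx25, and 96 bp for Pus7l and Irak4. Among all protein-coding genes 10.9% have such a partner within 1000 bp. The promoters of Pus7l, Pusl1 and Rpusd4 are printed because these had the 3 smallest p among the synthase genes. They run from 250 bases before to 50 after the start (RefSeq, GRCm38.p6, gene strand). Capitals mark the E-box CACGTG, the GC box GGGCGG and the ETS core CCGGAAG, each searched on both strands.
Pus7l, chr15:94543458-94543757, minus strand: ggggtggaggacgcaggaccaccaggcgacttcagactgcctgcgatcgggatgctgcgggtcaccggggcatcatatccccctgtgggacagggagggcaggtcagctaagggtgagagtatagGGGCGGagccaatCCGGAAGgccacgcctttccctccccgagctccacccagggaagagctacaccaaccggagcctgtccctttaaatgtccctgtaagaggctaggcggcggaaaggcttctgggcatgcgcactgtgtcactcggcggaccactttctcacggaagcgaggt
Pusl1, chr4:155891713-155892012, minus strand: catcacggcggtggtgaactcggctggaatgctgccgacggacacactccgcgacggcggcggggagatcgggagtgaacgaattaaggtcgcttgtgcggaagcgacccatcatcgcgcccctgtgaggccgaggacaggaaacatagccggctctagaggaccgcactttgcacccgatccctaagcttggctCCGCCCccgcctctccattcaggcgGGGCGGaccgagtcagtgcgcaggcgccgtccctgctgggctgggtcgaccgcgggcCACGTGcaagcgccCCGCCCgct
Rpusd4, chr9:35267631-35267930, plus strand: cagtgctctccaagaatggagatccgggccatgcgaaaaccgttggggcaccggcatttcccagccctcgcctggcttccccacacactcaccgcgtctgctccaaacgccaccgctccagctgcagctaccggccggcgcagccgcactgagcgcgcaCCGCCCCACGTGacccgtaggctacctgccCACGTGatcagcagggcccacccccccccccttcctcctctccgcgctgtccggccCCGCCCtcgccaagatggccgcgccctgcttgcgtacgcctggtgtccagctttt
An E-box, the recognition sequence of MYC and related factors, was found in a promoter of 5 of the 10 synthase genes (Pus1, Pus3, Pus7, Pusl1 and Rpusd4) and in 7.17% of 32544 promoters of this length. A gene counts if any of its listed promoters holds the motif, whereas the share is per promoter. The other listed promoter of Pus7 held no E-box. Rpusd4 held 2 copies, and in its promoter the first one directly adjoins a GC box. A GC box was found in 7 of the 10 genes and in 35.9% of all promoters, and the ETS core in Pus7l and in 8.91% of all promoters. These motifs are rich in C and G, and so were several of the promoters, with 69.0% G and C in Rpusd4 and 68.0% in Pusl1 against a median of 53.0%.

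Counts assigned to genes ran from 14017632 to 16763709 in NTC and from 14677644 to 19894821 in miR652-KD. Levels are given as CPM, the counts of a gene scaled to the summed gene counts of its library. The annotated Mir652 hairpin had 1, 0, 0 and 2 counts in NTC replicates 1 to 4 and 5, 0, 0 and 0 in miR652-KD, in an assay that does not read mature microRNAs, so these libraries do not check the knockdown. All 10 HSC markers examined, Procr, Slamf1 and Hlf among them, were detected, with summed levels of 1988 to 2433 CPM in NTC and 2045 to 2209 in miR652-KD. Single markers moved in opposite directions within this sum. Ly6a stood at 240 to 296 CPM in NTC and 316 to 490 in miR652-KD, and Kit at 440 to 664 and 380 to 435. Of the 10 markers 4 had a log2 difference above 0, and 0 passed the threshold given below. Transcripts of other cells differed widely between libraries: summed levels of 12 neutrophil genes were 570 to 15640 CPM in NTC, highest in replicates 4 and 3, and 626 to 5493 in miR652-KD. Of 14360 genes tested with edgeR's quasi-likelihood test, 6 passed a Benjamini-Hochberg adjusted p of 0.05, which is 0.0418%.

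None of the 10 synthase genes passed the threshold. Pus3 was too low to be tested, and each of the other 9 had at least 43 counts in every library. Of these 9, 8 had a log2 difference above 0, with a median of 0.29, whereas 49.5% of all tested genes lay above 0, with a median of -0.00. An unadjusted p below 0.05 was found for 2, Pus7l and Pusl1, against 5.99% of all tested genes. That number fell to 1 with the replicate number as a block. It was also 1 when NTC replicate 4, NTC replicates 3 and 4 together, or replicate 1 or 2 of miR652-KD were left out. The 1 was Pus7l without NTC replicate 4 or miR652-KD replicate 1, and Pusl1 without miR652-KD replicate 2. Without NTC replicate 1 the number stayed at 2, but these were Pus7l and Pus1 (edgeR adjusted p = 0.773 and 0.803), with Pusl1 at 0.849. On all 8 libraries Pus7l and Pusl1 had all miR652-KD libraries above all NTC libraries, which held for 2.35% of tested genes. In bulk samples fewer cells of a type and less RNA per cell cannot be told apart.

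**Figure D1:**
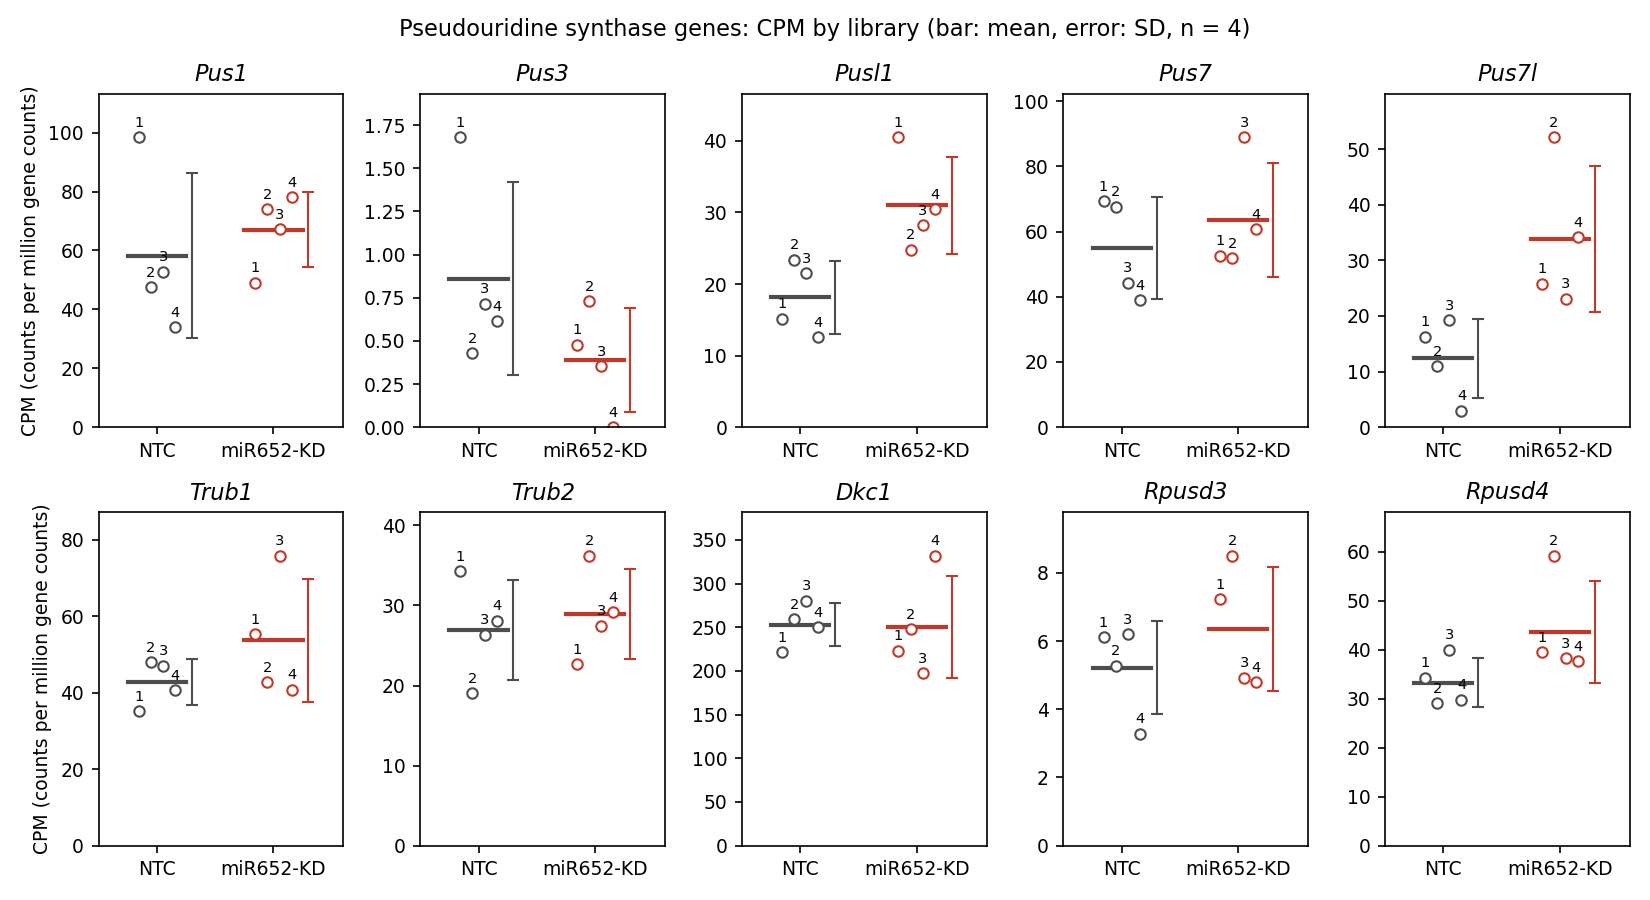
Levels of the 10 synthase genes in each library, in CPM on axes that start at 0. Numbered circles are replicates, horizontal bars are group means and error bars are SD (n = 4). The groups are separate in Pus7l and Pusl1 and overlap in the other 8 genes.

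Pus7 and Pus7l belong to the TruD-like enzymes, whose founding member modifies a tRNA in bacteria. Pus7l (ENSMUSG00000033356.3, chr15:94522688-94543547), a paralogue of Pus7, stood at 16.3, 10.99, 19.3 and 2.94 CPM in replicates 1 to 4 of NTC and at 25.8, 52.2, 23.1 and 34.1 CPM in replicates 1 to 4 of miR652-KD. Values of the other genes follow the same order, and positions are on mm10 from GENCODE M21. All miR652-KD libraries lay above all NTC libraries, with NTC replicate 4 lowest, on 43 counts, and miR652-KD replicate 2 highest. The means were 12.4 ± 7.16 and 33.8 ± 13.1 CPM (SD, n = 4). The log2 difference was 1.46 (SE 0.52, 95% interval 0.31 to 2.60), a ratio of 2.74, with an edgeR adjusted p of 0.781. It came to 1.14 when NTC replicate 4 was left out and to 1.18 when replicate 2 of miR652-KD was. Irak4, the kinase gene that starts 96 bp away on the other strand, had a log2 difference of -0.12 (edgeR adjusted p = 0.999).

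Pus7 itself (ENSMUSG00000057541.14, chr5:23740648-23783711), which acts on tRNAs and on mRNAs, stood at 69.4, 67.6, 44.3 and 39.0 CPM in NTC and at 52.6, 51.8, 89.0 and 60.8 CPM in miR652-KD. The groups overlapped throughout, since NTC replicates 1 and 2 exceeded 3 of the 4 miR652-KD libraries. Its log2 difference of 0.21 (95% interval -0.36 to 0.77, edgeR adjusted p = 0.995) became 0.01 without miR652-KD replicate 3, 0.08 without NTC replicate 4 and 0.34 without NTC replicate 2. It was -0.10 without NTC replicates 3 and 4, the libraries richest in neutrophil transcripts. The interval runs from a ratio of 0.781 to one of 1.71. The 2 paralogues thus had group differences of 1.46 and 0.21, and the difference between them was not tested.

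The TruA-like enzymes act on tRNAs. Pusl1 (ENSMUSG00000051557.15, chr4:155887879-155891781), whose product is found in mitochondria, stood at 15.1, 23.4, 21.5 and 12.6 CPM in NTC and at 40.5, 24.8, 28.2 and 30.5 CPM in miR652-KD. The groups did not overlap, but NTC replicate 2 and miR652-KD replicate 2 were close, at 23.4 and 24.8 CPM. With means of 18.1 ± 5.13 and 31.0 ± 6.76 CPM (SD, n = 4), the log2 difference was 0.77 (SE 0.29, 95% interval 0.12 to 1.42), a ratio of 1.71 (edgeR adjusted p = 0.803). Exons of Ints11, a subunit gene of the Integrator complex on the other strand, cover 29.9% of the exon bases of Pusl1. Ints11 had a log2 difference of -0.17 (edgeR adjusted p = 0.999), and Acap3, which starts 41 bp away, one of 0.06 (adjusted p = 0.999).

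Pus1 (ENSMUSG00000029507.16, chr5:110773667-110780659), which modifies tRNAs in the nucleus and in mitochondria, stood at 98.5, 47.4, 52.7 and 34.0 CPM in NTC and at 49.1, 74.1, 67.2 and 78.0 CPM in miR652-KD. NTC replicate 1 was the highest of all 8 libraries and NTC replicate 4 the lowest, so the NTC range enclosed the miR652-KD range. The log2 difference was 0.22 (95% interval -0.45 to 0.89, edgeR adjusted p = 0.999). This value rested on single libraries: it was 0.58 without NTC replicate 1, 0.04 without NTC replicate 4 and -0.10 without NTC replicates 3 and 4. In NTC replicate 1 HTSeq assigned 16.94% of reads to no feature, against 9.69% to 11.35% in the other libraries. Whether this bears on Pus1 was not tested.

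Pus3 (ENSMUSG00000032103.10, chr9:35558595-35567401), which modifies the anticodon stem and loop of tRNAs, was nearly uncounted, with 25, 6, 12 and 9 counts in NTC and 7, 12, 7 and 0 in miR652-KD. The 0 counts of miR652-KD replicate 4 allow a level of up to 0.173 CPM (3 counts, for counting error only). Most of its annotated sequence is shared: 2618 of its 2972 exon bases (88.1%) also belong to exons of Hyls1, a cilia gene on the opposite strand. HTSeq, in its default mode, sets a read in such a stretch aside as ambiguous unless strand is used, and the strand setting is not given. The stretch shared with no other gene measures 354 bases. Whether the low counts reflect this sharing was not tested. Hyls1 was low too, at 12 to 101 counts. Ambiguous reads made up 8.94% to 12.28% of all reads listed per library.

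The TruB-like enzymes are the tRNA enzyme Trub1, the mitochondrial enzyme Trub2 and dyskerin. Dkc1 (ENSMUSG00000031403.14, chrX:75095854-75109777) was the most abundant of the 10 genes per length in every library. It stood at 222, 259, 280 and 250 CPM in NTC and 223, 248, 197 and 332 CPM in miR652-KD. Both the lowest and the highest of the 8 values were in miR652-KD, in replicates 3 and 4. The means were 253 ± 24.4 and 250 ± 58.4 CPM (SD, n = 4), a log2 difference of -0.01 (95% interval -0.38 to 0.35, edgeR adjusted p = 0.999). The interval corresponds to ratios between 0.769 and 1.28.

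Trub1 (ENSMUSG00000025086.13, chr19:57452912-57491005), which makes the pseudouridine of the tRNA T-loop and acts on mRNAs, stood at 35.2, 48.0, 47.1 and 40.6 CPM in NTC and at 55.3, 42.7, 75.8 and 40.8 CPM in miR652-KD. Replicates 1 and 3 of miR652-KD exceeded all NTC libraries, and replicates 2 and 4 lay among them. Its log2 difference was 0.33 (95% interval -0.20 to 0.85, edgeR adjusted p = 0.965), and 0.12 without miR652-KD replicate 3. Trub2 (ENSMUSG00000039826.13, chr2:29761224-29788502) stood at 34.3, 19.0, 26.4 and 28.1 CPM in NTC and at 22.7, 36.2, 27.5 and 29.1 CPM in miR652-KD, with wide overlap. The log2 difference was 0.11 (95% interval -0.45 to 0.67, edgeR adjusted p = 0.999), and -0.01 without either NTC replicate 2 or miR652-KD replicate 2.

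The RluA-like enzymes Rpusd3 and Rpusd4 work in mitochondria, where Rpusd4 modifies the large ribosomal RNA and Rpusd3, like Trub2, is tied to mitochondrial mRNAs. Rpusd4 (ENSMUSG00000032044.4, chr9:35267865-35277731) stood at 34.3, 29.0, 40.0 and 29.8 CPM in NTC and at 39.5, 59.2, 38.2 and 37.6 CPM in miR652-KD. Only NTC replicate 3 reached the miR652-KD range, and miR652-KD replicate 2 stood apart from its group. The log2 difference was 0.39 (SE 0.22, 95% interval -0.10 to 0.89, edgeR adjusted p = 0.906), and 0.22 without miR652-KD replicate 2. Fam118b, across the shared start region, had a log2 difference of -0.22 (adjusted p = 0.999).

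Rpusd3 (ENSMUSG00000051169.14, chr6:113415319-113419340), the lowest of the tested synthase genes per length, stood at 6.12, 5.28, 6.20 and 3.28 CPM in NTC and 7.22, 8.51, 4.93 and 4.79 CPM in miR652-KD. Its groups overlapped, with 48 to 140 counts per library and a log2 difference of 0.29 (95% interval -0.90 to 1.48, edgeR adjusted p = 0.999). That difference was 0.13 when either NTC replicate 4 or replicate 2 of miR652-KD was left out. Of its exon bases 65.2% are shared with Gm44280, a provisional gene model on the opposite strand that had at most 6 counts in any library. Sharing of over 50% of exon bases is found in 2.95% of protein-coding genes, and here in Pus3 and Rpusd3. Pus1 shares 30.1% with non-coding transcripts on the opposite strand and Trub2 17.1%, most of it with Coq4. Coq4 had a log2 difference of 0.76 (edgeR adjusted p = 0.817). Mpp1, whose exons cover 1.09% of the exon bases of Dkc1, had one of -0.50 (edgeR adjusted p = 0.942). Ddx25, which starts 67 bp from Pus3, had one of -0.75 (edgeR adjusted p = 0.999).

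**Figure D2:**
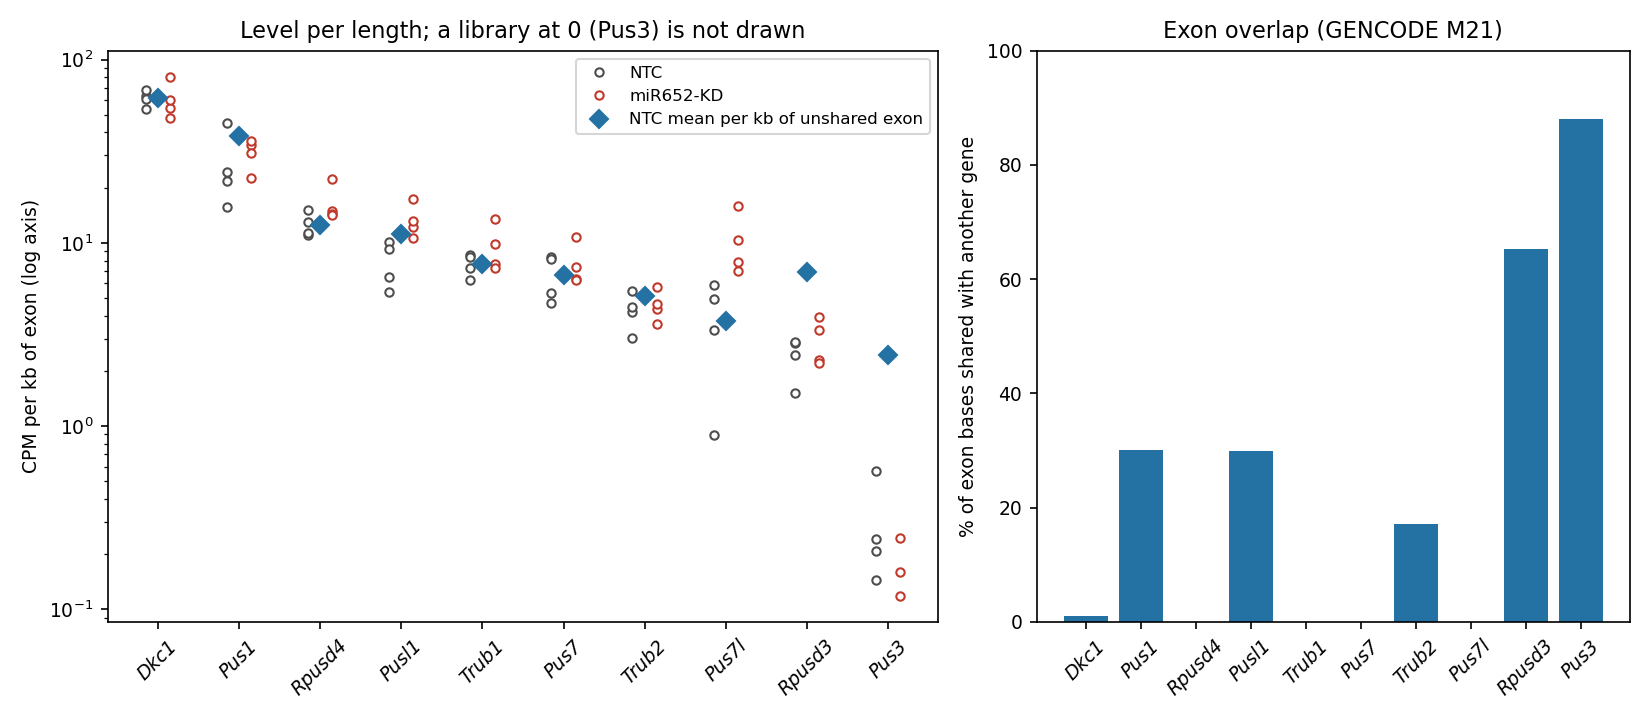
Left, CPM per kb of exon on a log axis for each synthase gene, with circles for libraries. Blue diamonds are the NTC mean CPM of the whole gene divided by the length of exon shared with no other gene. Right, the percentage of exon bases shared with another annotated gene. Dkc1 leads at 61.3 CPM per kb in NTC, and Pus3 and Rpusd3, with 88.1% and 65.2% of bases shared, are at the low end.

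Per length, the order of levels in NTC was led by Dkc1, at 61.3 ± 5.91 CPM per kb of exon (SD, n = 4), above 93.0% of tested genes. Pus1 followed at 26.7 ± 12.9 and Rpusd4 at 12.6 ± 1.90 CPM per kb, and in NTC these 3 genes overlapped neither with each other nor with Pusl1, the next in order. From Pusl1 to Rpusd3 each gene overlapped with its neighbour. Pusl1, Trub1 and Pus7 lay at 7.79, 7.64 and 6.65 CPM per kb, and Trub2 and Pus7l at 4.27 and 3.76. Rpusd3 stood at 2.42 and Pus3 at 0.289 CPM per kb. In miR652-KD Pus7l was at 10.3 ± 3.98 and Pusl1 at 13.3 ± 2.90 CPM per kb, while Dkc1 was at 60.7 ± 14.2. An alternative chosen after seeing the data divided the same whole-gene CPM by the length of exon that no other gene shares. Rpusd3 then came to 6.95 CPM per kb in NTC and moved from the ninth to the sixth place, and Pus3, at 2.43, stayed last. Reads were not recounted, so these values hold only if reads in shared stretches were left uncounted. The strand setting that decides this is not given.

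The genes also differed in how much replicates scattered. Within groups the SD of log2(CPM + 1) was 0.835 for Pus7l and 0.493 for Pus1, above the medians of 0.504 and 0.328 among tested genes within 1.2-fold of their mean level. It was 0.261 for Rpusd4 and 0.306 for Trub2, below the corresponding medians of 0.408 and 0.460. Pusl1, at 0.349, was also below its median of 0.484. Dkc1, despite the smallest SD of the set at 0.247, scattered more than the median of 0.185 at its level.

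**Figure D3:**
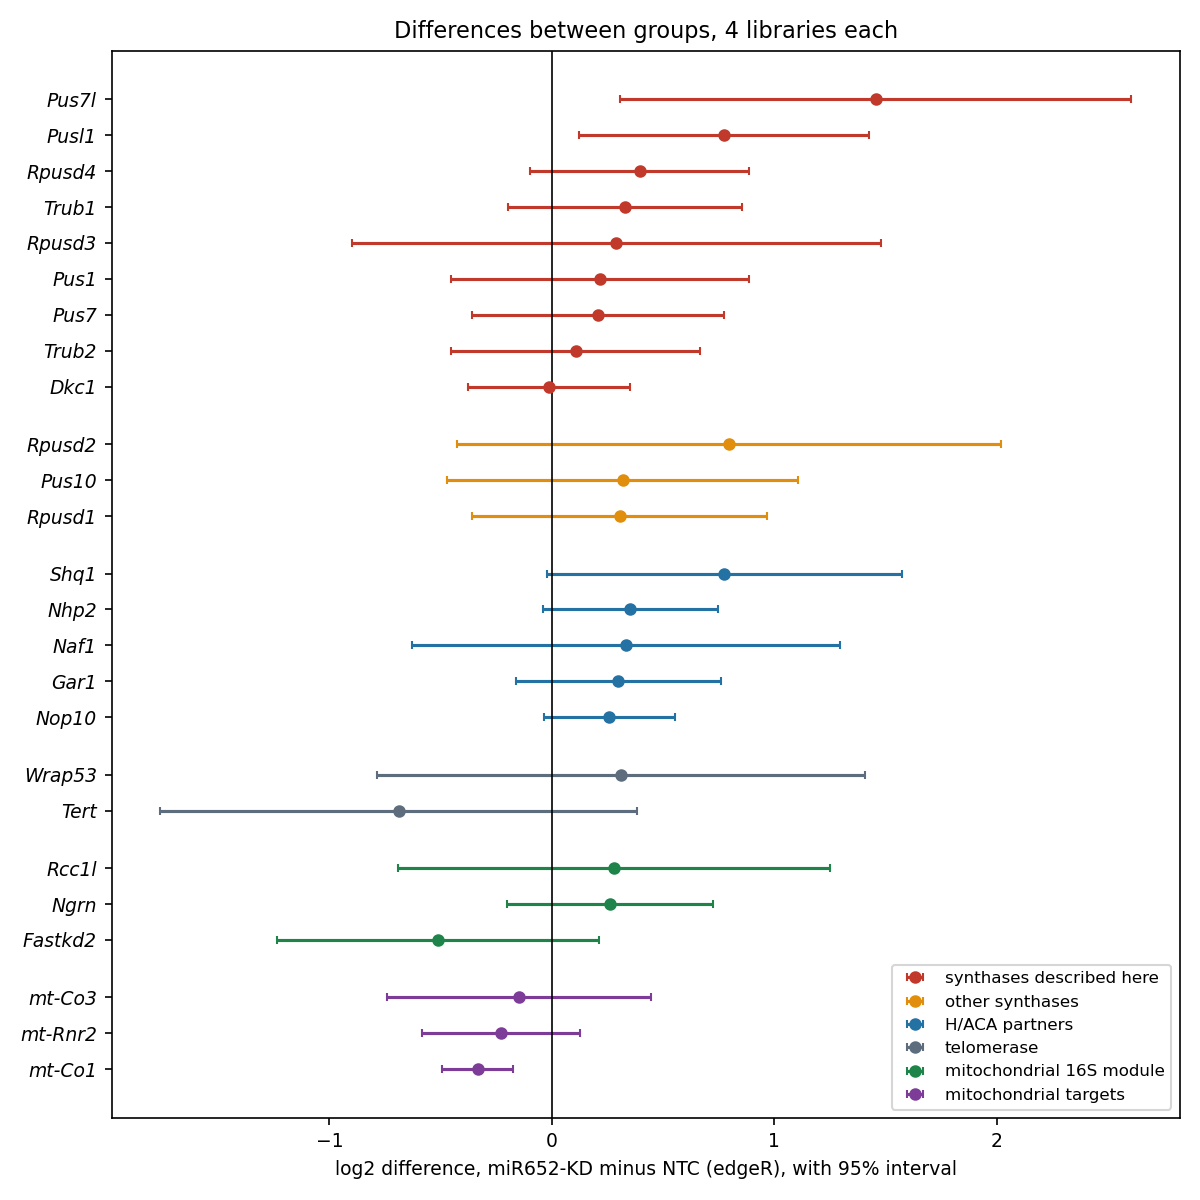
Log2 differences, miR652-KD minus NTC, with 95% intervals for each tested synthase gene and for partner genes and targets, by list. Among the synthase genes the intervals of Pus7l and Pusl1 lie above 0 before adjustment, and those of the other 7 include 0.

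Among libraries, NTC replicate 4 was the lowest in 5 of the 10 synthase genes and above the NTC mean in 1. miR652-KD replicate 2 was the highest in 4. Summed over the 9 genes other than Dkc1, which alone made up 35.8% to 56.7% of the total, levels were 311, 251, 258 and 191 CPM in NTC and 293, 350, 354 and 316 CPM in miR652-KD. NTC replicate 1 exceeded miR652-KD replicate 1, so the groups overlapped in this sum. NTC replicate 4 also had the highest summed neutrophil level, 15640 CPM, with Ngp at 3623 CPM and S100a8 at 1969 CPM, against 570 CPM in NTC replicate 1. The next highest neutrophil level, 9872 CPM, was in NTC replicate 3, which was the lowest library in 0 of the synthase genes. Its synthase sum of 258 CPM exceeded the 251 CPM of NTC replicate 2, where the neutrophil level was 3519 CPM. Without NTC replicate 4 the median log2 difference of the 9 tested genes was 0.14, and without NTC replicates 3 and 4 together it was 0.17, with 7 genes above 0.

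Other marker lists also differed between libraries and groups. Of 12 G2 and M phase genes 11 had log2 differences above 0 and 0 passed, with summed levels of 587 to 915 CPM in NTC and 745 to 1614 CPM in miR652-KD. The highest of these, miR652-KD replicate 3, was also the highest library for 2 of the 10 synthase genes, Pus7 and Trub1. It was the lowest library for Dkc1, at 197 CPM. Of 11 erythroid genes 9 were below 0, with sums of 4191 to 7904 CPM in NTC and 1798 to 4552 CPM in miR652-KD. All 9 tested neutrophil genes of 12 listed were below 0. Single genes made up most of some sums. Prtn3 stood at 559 CPM of a neutrophil sum of 570 in NTC replicate 1, and Car2 at 1760 CPM of an erythroid sum of 1798 in miR652-KD replicate 1. Over all libraries Car2 ran from 1298 to 2216 CPM. Hba-a1 stood at 1013 to 2575 CPM in NTC and 2.18 to 1239 in miR652-KD, and Alas2 at 42.2 to 59.2 and 1.70 to 17.3 CPM. Sums of the macrophage and dendritic list were 720 to 2316 CPM in NTC and 777 to 1015 CPM in miR652-KD. Most of this was Lyz2, at 681 to 2184 and 748 to 944 CPM. Csf1r was at 0 in all NTC libraries and at 0.352 to 8.18 CPM in miR652-KD, and of 5 tested genes of this list 1 lay above 0. Sums of the megakaryocyte list were 228 to 387 and 187 to 327 CPM. Those of the lymphoid list were 49.6 to 78.5 and 46.9 to 84.2 CPM, mostly Cd79b at 48.6 to 78.4 and 44.0 to 62.5 CPM. The T-cell genes Cd3d, Cd3e and Cd3g and also Il7r, Gp1bb and Gp6 stayed below 0.5 CPM in every library, while all neutrophil, erythroid and macrophage markers reached that level in at least 1. The part of these cells and phases in the synthase values was not tested.

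**Figure D4:**
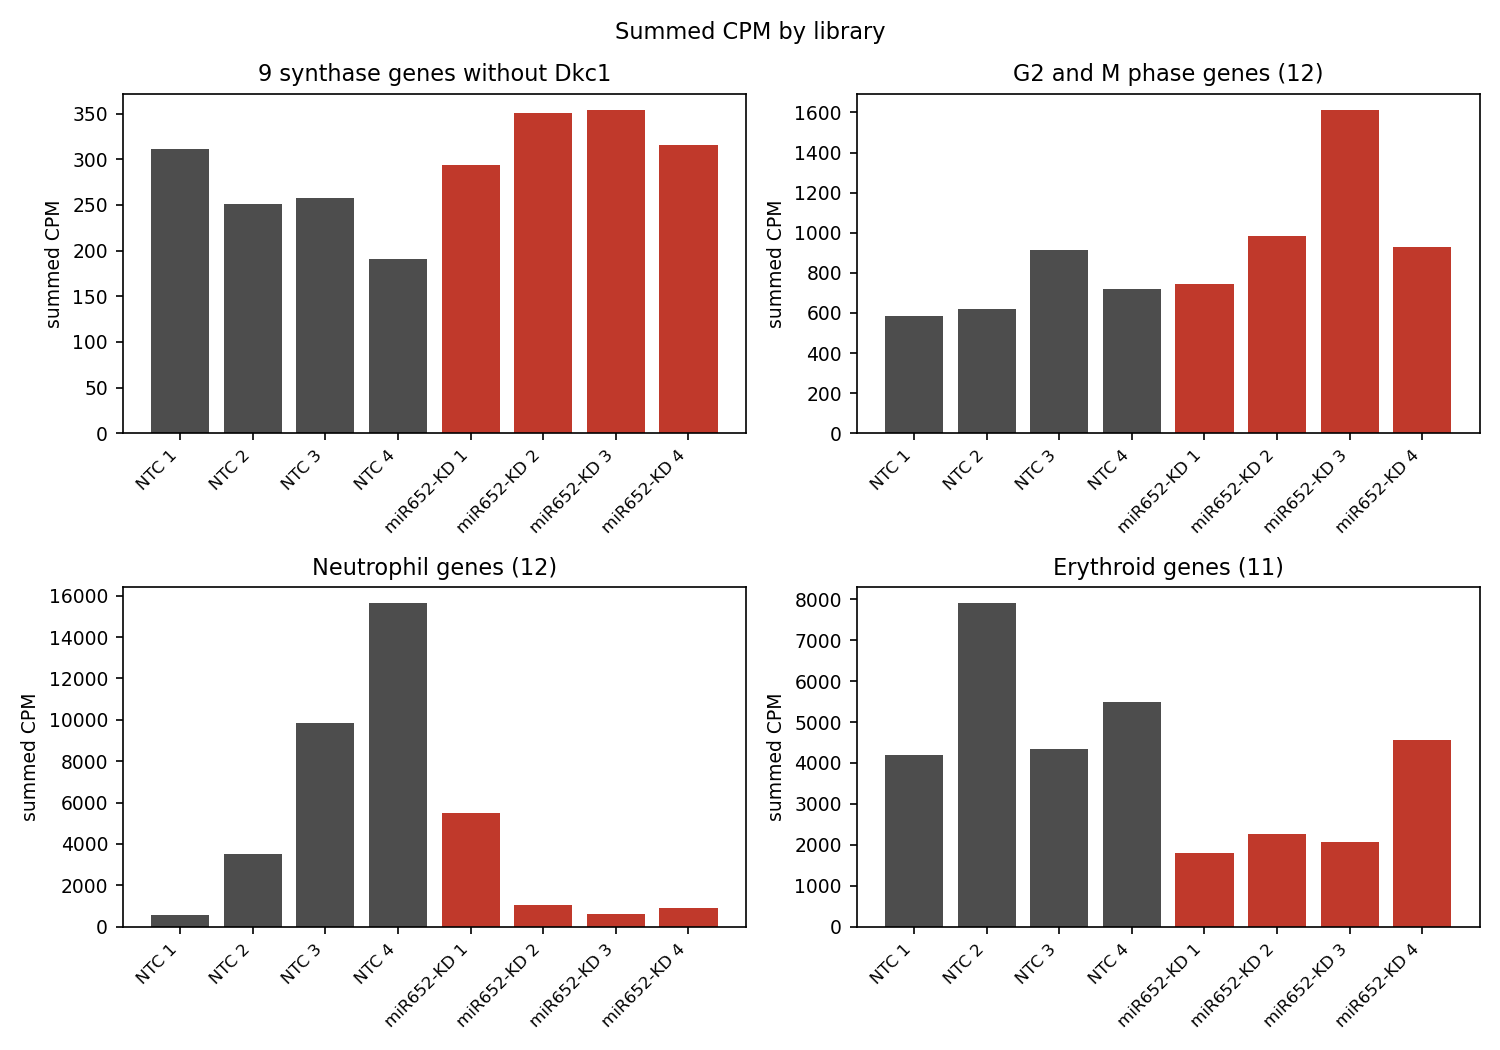
Summed CPM in each library for the 9 synthase genes without Dkc1, 12 G2 and M phase genes, 12 neutrophil genes and 11 erythroid genes, as bars from 0. NTC replicate 4 has the lowest synthase sum, 191 CPM, and the highest neutrophil sum, 15640 CPM. NTC replicate 3 has the next highest neutrophil sum, 9872 CPM, and a synthase sum of 258 CPM, above the 251 CPM of NTC replicate 2.

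Outside the 10 genes, 3 further pseudouridine synthases were measured. Pus10, Rpusd1 and Rpusd2 had log2 differences of 0.32, 0.30 and 0.80, all with overlap between groups, and 0 of 3 passed (edgeR adjusted p = 0.995, 0.995 and 0.951). Each depended on single libraries. Pus10 came to 0.63 and 0.16 when NTC replicates 1 and 3 were left out in turn, and to 0.53 and 0.11 when replicates 1 and 3 of miR652-KD were. Rpusd1 came to 0.02 without miR652-KD replicate 4 and 0.50 without miR652-KD replicate 2, and Rpusd2 to 0.50 without NTC replicate 1. Pus10 stood at 45.2, 25.5, 17.7 and 22.8 CPM in NTC and at 18.7, 35.7, 49.1 and 34.5 CPM in miR652-KD.

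The proteins that build H/ACA particles with dyskerin were examined as a group. Nop10, Nhp2 and Gar1 are core subunits, and Naf1 and Shq1 are assembly factors. All 5 had log2 differences above 0, with a median of 0.33, and 0 of 5 passed. Shq1, which chaperones dyskerin before assembly, stood at 32.8, 30.4, 31.1 and 9.02 CPM in NTC and at 39.9, 43.0, 43.6 and 49.7 CPM in miR652-KD. Its groups did not overlap, and NTC replicate 4 lay far below the other libraries. The log2 difference was 0.78 (SE 0.36, 95% interval -0.02 to 1.57, edgeR adjusted p = 0.844), and 0.50 without NTC replicate 4. Nhp2 had a log2 difference of 0.35 (adjusted p = 0.864), Nop10 of 0.26 (adjusted p = 0.869), Gar1 of 0.30 (adjusted p = 0.956) and Naf1 of 0.33 (adjusted p = 0.999, from 0.13 to 0.63 with 1 library left out), against -0.01 for Dkc1.

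Of the telomerase genes, Tert, the catalytic subunit, had a log2 difference of -0.69 and Wrap53, which brings telomerase RNA to Cajal bodies, one of 0.31 (edgeR adjusted p = 0.960 and 0.999). Without NTC replicate 4 the value of Tert was -0.32, and with 1 library left out that of Wrap53 ran from -0.17 to 0.55. The telomerase RNA Terc had 1 count in miR652-KD replicate 2 and 0 elsewhere, and was not tested. Terc lacks the poly(A) tail that this library protocol primes from.

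Of 3 mitochondrial partner genes 2 lay above 0, and 3 of 3 mitochondrially encoded targets lay below 0. The partners Fastkd2, Ngrn and Rcc1l work with Rpusd3, Rpusd4 and Trub2 in a module on the large ribosomal RNA. Their log2 differences were -0.51, 0.26 and 0.28, and 0 of 3 passed. With 1 library left out they ran from -0.76 (miR652-KD replicate 4) to -0.28 (NTC replicate 4) for Fastkd2 and from 0.08 (miR652-KD replicate 3) to 0.35 (miR652-KD replicate 2) for Ngrn. For Rcc1l they ran from 0.00 (miR652-KD replicate 3) to 0.73 (NTC replicate 4). That ribosomal RNA, mt-Rnr2, stood at 3562, 4313, 3046 and 2621 CPM in NTC and at 3330, 2463, 3241 and 2507 CPM in miR652-KD, a log2 difference of -0.23 (edgeR adjusted p = 0.961) that came to -0.07 when NTC replicate 2 was left out and to -0.15 when replicate 2 of miR652-KD was. The mRNA mt-Co1, of a cytochrome oxidase subunit, stood at 7829, 8845, 7565 and 7845 CPM in NTC and at 6736, 5776, 6568 and 6335 CPM in miR652-KD. Its groups did not overlap, with all miR652-KD libraries lower, which held for 309 of 14360 tested genes. The log2 difference was -0.33 (SE 0.07), which did not pass with edgeR (adjusted p = 0.470) or limma-voom (adjusted p = 0.297). Among the 14 alternatives it passed only with DESeq2 (adjusted p = 0.00588), where 61 genes passed in all, against 6 with edgeR. mt-Co3, of another subunit, stood far lower than mt-Co1, at 19.6 to 28.6 CPM in NTC and 17.1 to 26.0 CPM in miR652-KD, and the reason was not tested. Its log2 difference was -0.15 (edgeR adjusted p = 0.999), from -0.25 without NTC replicate 1 to -0.04 without NTC replicate 2. Sra1, an RNA coactivator modified by Pus1, had a log2 difference of 0.04 (edgeR adjusted p = 0.999), and Pudp, the pseudouridine phosphatase gene, was listed at 0 in all 8 libraries.

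**Figure D5:**
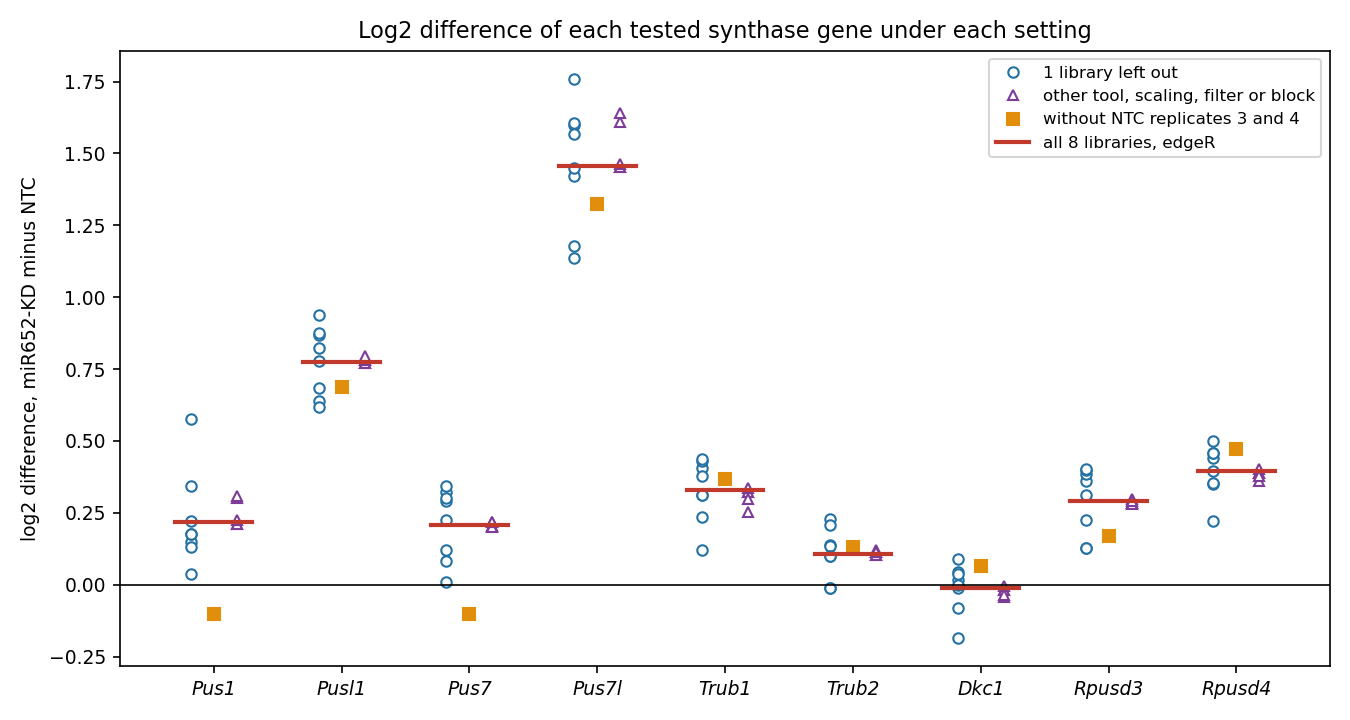
Log2 difference of each tested synthase gene with all 8 libraries in edgeR (red bar), with 1 library left out (circles), without NTC replicates 3 and 4 (squares) and with another tool, scaling, filter or a replicate block (triangles). Values of Pus7l run from 1.14 to 1.76 and those of Pusl1 from 0.62 to 0.94, while Pus1, Pus7, Trub2 and Dkc1 have values on both sides of 0.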

How the data were processed

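The authors deposited 1 table of raw read counts for each of 8 Smart-seq2 libraries. HISAT2 2.1.0 and HTSeq 0.11.2 are named as tools, DESeq2 without a version, and mm10 as build, per the submitters' processing notes. Neither the annotation release nor HTSeq's strand setting is given in the sources used here. The 5 HTSeq summary rows entered no library size or test. Reads that HTSeq assigned to no feature were 9.69% to 16.94% and ambiguous reads 8.94% to 12.28% of each file. Identifiers were matched to GENCODE M21 (mm10), which holds 55394 of 55487.

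The synthase genes, partner lists, marker lists and alternatives were chosen with earlier results of these data known. Named genes were all 10 synthases and every gene of the partner lists; neighbours were added by position. The test was edgeR 4.0.16 (R 4.3.3): TMM scaling, filterByExpr (minimum count 10, total 15), robust quasi-likelihood F test, Benjamini-Hochberg adjustment over 14360 genes, threshold 0.05. SE is the log2 difference over the square root of F. Smart-seq2 has no molecular identifiers, so floors cover counting error only.

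Alternatives were RLE scaling, DESeq2 1.42.0, limma-voom (limma 3.58.1), no filter, the replicate number as a block and leaving out libraries. All pairs of libraries differed beyond counting noise. On simulated counts of 14360 genes for miR652-KD against NTC, 31% of 2-fold and 75% of 4-fold changes were recovered and 2 unchanged genes called.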

Additional observations from a re-analysis of the deposited data

Results flagged for a closer look

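In 55 combinations of gene and group, 5 had a library whose distance from the other 3 exceeded the 95% critical value of Dixon's gap test; chance flags about 1 in 20. Rpusd4 was at 59.2 CPM in miR652-KD replicate 2, against 37.6 to 39.5 CPM in the rest of its group. Shq1 was at 9.02 CPM in NTC replicate 4, against 30.4 to 32.8 CPM, and Rcc1l at 55.1 CPM in the same library, against 21.4 to 25.1 CPM. Tert was at 6.06 CPM in miR652-KD replicate 4, against 11.9 to 12.2 CPM. Terc was at 0.0608 CPM in miR652-KD replicate 2, which is 1 count, and at 0 in the rest.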

How the results depend on the processing

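No synthase gene passed the adjusted threshold under any of the 14 alternatives, and 1 or 2 had an unadjusted p below 0.05: 2 on all 8 libraries with edgeR (also with RLE scaling or without the low-count filter), DESeq2 and limma-voom, but 1 with the replicate number as a block, 1 without NTC replicate 4, miR652-KD replicate 1 or miR652-KD replicate 2, and 1 without NTC replicates 3 and 4. Over all genes 6 passed in edgeR, 5 with RLE scaling, 4 with limma-voom, 6 without the low-count filter, 61 with DESeq2, 0 with the replicate number as a block (733 at an unadjusted p below 0.05) and 0 without NTC replicates 3 and 4 (884). Leaving out 1 library gave 0 genes passed each time (789 to 992 at an unadjusted p below 0.05). Same-numbered libraries did not deviate together (correlations -0.0492 to -0.014, and 0 of 8 libraries correlated best with their own number), so no pairing is known. Leaving out 1 library, log2 differences ran from -0.184 to 0.0904 for Dkc1, from -0.0129 to 0.230 for Trub2, from -0.171 to 0.547 for Wrap53 and from -0.00312 to 0.105 for Sra1, and so took both signs. Without NTC replicates 3 and 4 the values of Pus1, Pus7, Dkc1 and Pus10 turned to -0.102, -0.102, 0.0636 and -0.0226. The cause was not tested. Adjusted p ran from 0.300 to 0.942 for Pus7l and from 0.507 to 0.917 for Pusl1. By longest transcript, Dkc1 came to 90.2 CPM per kb in NTC, Pus7 to 15.1 and Pusl1 to 14.6, and Pus7 moved from the sixth to the fourth place.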
